A study of Mus musculus with 6 samples.

Results

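The genes described here encode the enzymes that build cholesterol and fatty acids from acetyl units, with the regulators that set their transcription. They were taken as a named list of 33 genes, of which 32 had a row of their own in the array table among 19938 genes. Acat2 had none and was left out. By role they were 6 enzymes of the mevalonate pathway and 11 enzymes from squalene to cholesterol. Another 5 genes were regulators together with the sterol carrier Stard4. The rest were 3 enzymes that supply acetyl or acetoacetyl units, and 7 enzymes that make, desaturate or elongate fatty acids. The first 17 enzymes are called the sterol branch and the last 7 the fatty acid branch.

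RNA was measured on 6 single-colour Affymetrix arrays of mouse cells. Embryonic fibroblasts (MEF, 1 array) were cultured from E11.5-13.5 embryos of C57BL/6JJcl mice, and lymph node (LN) stroma (1 array) was the podoplanin+ VCAM-1+ CD45- CD31- fraction sorted from digested nodes of adult C57BL/6JJcl mice, with no culture. BLS4 and BLS12 are established stromal lines from BALB/cA LN. Each line had 1 array unstimulated and 1 after 2 days with 1 µg/ml of a goat polyclonal agonistic antibody to the lymphotoxin β receptor (LTβR), so the unstimulated and antibody groups had 2 arrays each. MEF and both lines were grown in DMEM with foetal calf serum, so LN stroma differed from every other group in culture, and it differed from the lines also in strain and establishment as a line. Neither the number of mice behind the LN array nor a control antibody was named, and nothing said whether the lines were clonal. Separate cultures are not stated for the arrays of either line, so p-values cover only the spread among these samples. That spread is the disagreement between the lines, in which differences of the lines and technical differences cannot be told apart.

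Cholesterol synthesis runs from acetyl units through mevalonate and squalene, and fatty acid synthesis starts from the same acetyl units. Both are transcribed under the sterol regulatory element-binding proteins (SREBP), which Scap escorts out of the endoplasmic reticulum when sterol is low and Insig1 retains there when sterol is high. SREBP2, from Srebf2, acts mainly on sterol genes, and SREBP1, from Srebf1, mainly on fatty acid genes.

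Promoter sequences show what letters these genes share outside the array data. RefSeq's promoter table (GRCm38.p6) held 31 windows for 25 of the 32 genes, and the 250 bases before the start were searched on both strands. The motifs were the sterol response element TCACNCCAC, the CCAAT box, the Sp1 box GGGCGG and the E-box CACGTG. Matches of different motifs can share bases, and each motif was counted on its own. Scd1, Scd2, Fads1, Sqle, Fdps, Fdft1 and Stard4 were not in the table. Of 17 sterol branch windows 14 (82.4%) held CCAAT, and so did 33.8% of all 32851 windows in the table. All 14 sterol branch genes with a window had it in at least 1 of their windows. The Sp1 box was in 82.4% of sterol branch windows and 32.7% of all, and the E-box in 17.6% and 6.02%. Windows were not matched for base composition. In the fatty acid branch only 4 genes had a window, of which 1 held CCAAT and 1 the Sp1 box. The sterol response element in exactly these letters was in 1 member window, that of Hmgcs1, and in 1.05% of all windows. A match is a description of letters and not a binding site.

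Hmgcs1 is shown because its window holds that element, from base -137 on, and Idi1, Cyp51 and Hsd17b7 because they had the lowest adjusted p with antibody, a choice made after their values were seen. Capitals mark the sterol response element and CCAAT or its complement ATTGG.
Hmgcs1 (chr13:119690101-119690350, + strand): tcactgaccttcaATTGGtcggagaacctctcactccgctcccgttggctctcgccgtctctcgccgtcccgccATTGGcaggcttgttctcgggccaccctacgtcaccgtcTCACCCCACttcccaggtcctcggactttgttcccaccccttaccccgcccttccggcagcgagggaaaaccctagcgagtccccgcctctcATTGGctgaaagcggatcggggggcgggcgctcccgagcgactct
Idi1 (chr13:8885356-8885605, + strand): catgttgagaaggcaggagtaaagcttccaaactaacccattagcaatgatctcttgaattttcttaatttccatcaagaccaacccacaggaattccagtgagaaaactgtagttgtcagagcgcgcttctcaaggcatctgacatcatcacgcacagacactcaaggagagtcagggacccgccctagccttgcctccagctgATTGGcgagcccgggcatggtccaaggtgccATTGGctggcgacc
Cyp51 (chr5:4104698-4104947, - strand): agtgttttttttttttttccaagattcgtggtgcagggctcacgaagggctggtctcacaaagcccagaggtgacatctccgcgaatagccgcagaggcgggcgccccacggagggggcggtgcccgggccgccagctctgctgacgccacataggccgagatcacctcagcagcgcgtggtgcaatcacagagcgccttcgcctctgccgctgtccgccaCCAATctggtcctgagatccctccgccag
Hsd17b7 (chr1:169969206-169969455, - strand): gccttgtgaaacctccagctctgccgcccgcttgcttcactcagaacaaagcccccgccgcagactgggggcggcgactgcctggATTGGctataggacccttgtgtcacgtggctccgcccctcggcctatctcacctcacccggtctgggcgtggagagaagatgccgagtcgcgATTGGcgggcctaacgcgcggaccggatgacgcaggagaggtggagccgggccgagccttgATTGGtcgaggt

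The deposited values are linear intensities, given here as log2, and each gene is compared only with itself across arrays, since levels of different probes cannot be ranked. Median intensity per array ranged from 51.5 to 56.3. All 32 genes lay above the array median in all 6 arrays. Some lay only a little above it, such as Acss2 in antibody-treated BLS12 (5.99, array median 5.82) and Lss in LN stroma (6.26, array median 5.80). The 8 stromal fibroblast markers, Pdpn, Vcam1, Pdgfra, Pdgfrb, Col1a1, Col3a1, Thy1 and Ltbr, were above the median in every array. Of 7 lymphocyte markers with a row at most 1 was above it in any array. In these bulk RNA samples fewer cells of a type and less RNA per cell cannot be told apart.

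Over the 6 arrays most of the genes were lowest in LN stroma and highest in an unstimulated line. LN stroma was the lowest array for 25 of the 32 genes, and an unstimulated line was the highest for 23. How often each array was lowest or highest over all genes was not counted, so these counts have no share beside them. Relative to each gene's mean over the 6 arrays, the sterol branch had a median of -0.94 log2 units in LN stroma, 0.35 in MEF, 0.56 in unstimulated BLS4 and 0.32 in unstimulated BLS12. With antibody its median was 0.07 in BLS4 and -0.38 in BLS12. The fatty acid branch had -0.76 in LN stroma and 0.13 in MEF, 0.17 and -0.19 without and with antibody in BLS4, and 0.79 and 0.07 in BLS12. The highest array was BLS4 for 10 of 17 sterol enzymes and BLS12 for 6 of 7 fatty acid enzymes, each unstimulated.

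**Figure D1:**
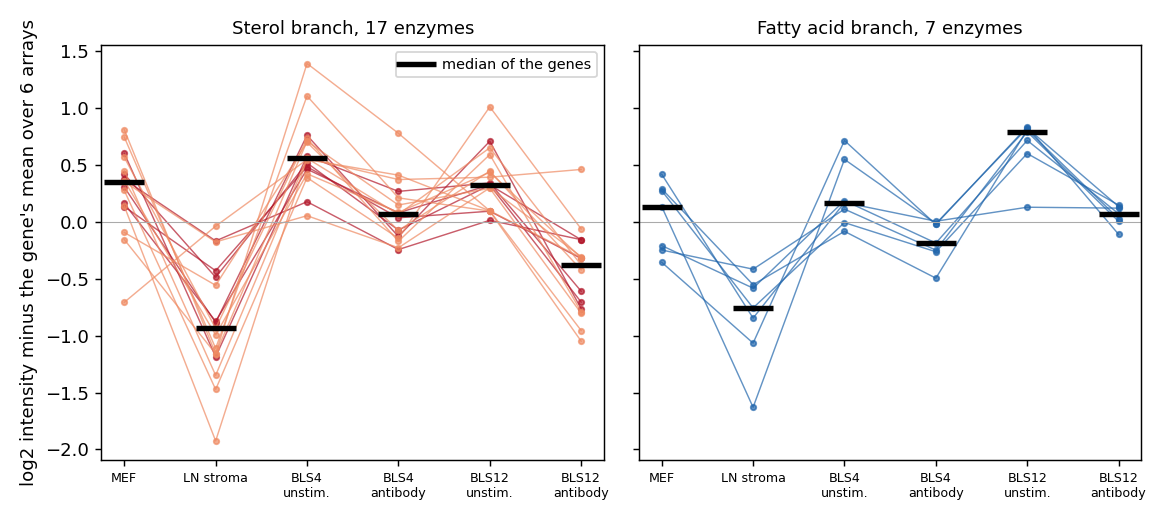
Log2 intensity of each gene minus its own mean over 6 arrays (y axis) in the 6 arrays (x axis), for 17 sterol enzymes (left; dark red mevalonate, orange squalene to cholesterol) and 7 fatty acid enzymes (right); thin lines are genes and black bars are medians. LN stroma has the lowest median in each panel, -0.94 and -0.76, and the highest is unstimulated BLS4 on the left (0.56) and unstimulated BLS12 on the right (0.79).

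The antibody comparison asked which transcripts changed when LTβR was engaged in the lines. All 32 genes were lower with antibody in BLS4 and 29 were lower in BLS12. The exceptions in BLS12 were Sc5d, Srebf1 and Scap, each within 0.11 log2 units of 0. The median difference was -0.41 in BLS4 and -0.67 in BLS12, where all 11988 tested genes had medians of 0.02 and -0.05. Differences of at least 1.5-fold (0.585 log2 units) in both lines were found in 7 genes, all lower: Idi1, Hmgcs1, Cyp51, Hsd17b7, Nsdhl, Tm7sf2 and Scd1. Over all tested genes 1.1% were lower by that size and 1.43% higher. Taking each line by itself, 8 members were lower by that size in BLS4, beside 2.35% of all genes, and 18 in BLS12, beside 7.75%. In limma none of the 32 passed an adjusted p of 0.05 in either direction, where 0.0751% of all genes passed as lower and 0.2% as higher. At an unadjusted p of 0.05, 22 members were lower and 0 higher, beside 5.91% and 5.73% of all genes.

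Among the mevalonate enzymes the largest difference was in Idi1, the isopentenyl diphosphate isomerase. Its log2 intensity was 9.37 in MEF, 8.18 in LN stroma, 9.83 without and 8.94 with antibody in BLS4, and 9.77 and 8.30 in BLS12. Both antibody arrays lay below both unstimulated arrays, and the fitted difference was -1.18 (SE 0.184, adjusted p = 0.0931). Hmgcs1, which makes HMG-CoA, read 9.94 in MEF, 9.03 in LN stroma, 10.04 and 9.45 in BLS4 and 9.84 and 8.81 in BLS12, unstimulated first. Its arrays also separated by treatment, with a fitted difference of -0.81 (SE 0.165, adjusted p = 0.151). Fdps, the farnesyl diphosphate synthase, was at 10.01 in MEF, 8.22 in LN stroma, 9.99 and 9.68 in BLS4 and 9.75 and 8.80 in BLS12. The remaining mevalonate enzymes are the kinases Mvk and Pmvk and the decarboxylase Mvd, which differed by -0.43, -0.30 and -0.43. Mvd read 8.32 in MEF, 7.28 in LN stroma, 8.62 and 8.24 in BLS4 and 8.48 and 8.0 in BLS12. In all 6 of these genes both antibody arrays were below both unstimulated arrays, as in 22 of the 32 members and 12.1% of all tested genes.

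The squalene to cholesterol enzymes, which include the squalene synthase Fdft1, had the largest median difference of the roles, -0.53 in BLS4 and -1.03 in BLS12. Cyp51, the lanosterol demethylase, read 9.04 in MEF, 7.53 in LN stroma, 9.20 and 8.30 in BLS4 and 9.06 and 7.68 in BLS12. With antibody BLS12 was near LN stroma, and BLS4 lay between LN stroma and MEF. The fitted difference was -1.14 (SE 0.170, adjusted p = 0.0856). Hsd17b7, a sterol ketoreductase, read 9.09 in MEF, 7.24 in LN stroma, 9.46 and 8.56 in BLS4 and 8.44 and 7.30 in BLS12. Its antibody array of BLS4 lay above the unstimulated array of BLS12, since the lines themselves differed, and its fitted difference of -1.02 (SE 0.147) had the lowest adjusted p of the 32 genes, 0.0827. Sqle, the squalene epoxidase, read 9.85 in MEF, 8.05 in LN stroma, 9.96 and 9.47 in BLS4 and 10.06 and 9.03 in BLS12 (adjusted p = 0.197).

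Tm7sf2, a sterol reductase, read 7.23 in MEF, 6.76 in LN stroma, 8.02 and 7.25 in BLS4 and 7.77 and 6.90 in BLS12, and its arrays separated by treatment (adjusted p = 0.104). Nsdhl, which removes methyl groups of the sterol ring as carbon dioxide, read 8.90 in MEF, 7.90 in LN stroma, 10.45 and 9.84 in BLS4 and 9.16 and 8.11 in BLS12. Here BLS4 was above BLS12 in each condition, and the antibody difference was -0.83 (SE 0.165, adjusted p = 0.143). Msmo1, the sterol methyl oxidase, read 11.86 in MEF, 9.89 in LN stroma, 11.76 and 11.20 in BLS4 and 11.35 and 10.25 in BLS12. Lss, the lanosterol synthase, read 8.01, 6.26, 8.12, 7.59, 8.74 and 7.67 in the same order of arrays. Fdft1, the squalene synthase, read 9.92, 8.57, 9.98, 9.64, 10.00 and 9.25. In these last 3 genes both antibody arrays were below both unstimulated ones.

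The late steps were less uniform. Sc5d, the sterol desaturase, was level across the lines, at 10.14 and 9.96 in BLS4 and 9.98 and 10.05 in BLS12, against 9.72 in MEF and 7.66 in LN stroma. Its fitted antibody difference was -0.06, and 0.0128 after quantile normalization. Ebp, the sterol isomerase, read 8.09 in MEF, 8.76 in LN stroma, 9.34 and 9.21 in BLS4 and 8.89 and 8.48 in BLS12. It was the only sterol enzyme with its lowest value in MEF. Dhcr7, the reductase of the last step, differed by -0.28 in BLS4 and -0.60 in BLS12.

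**Figure D2:**
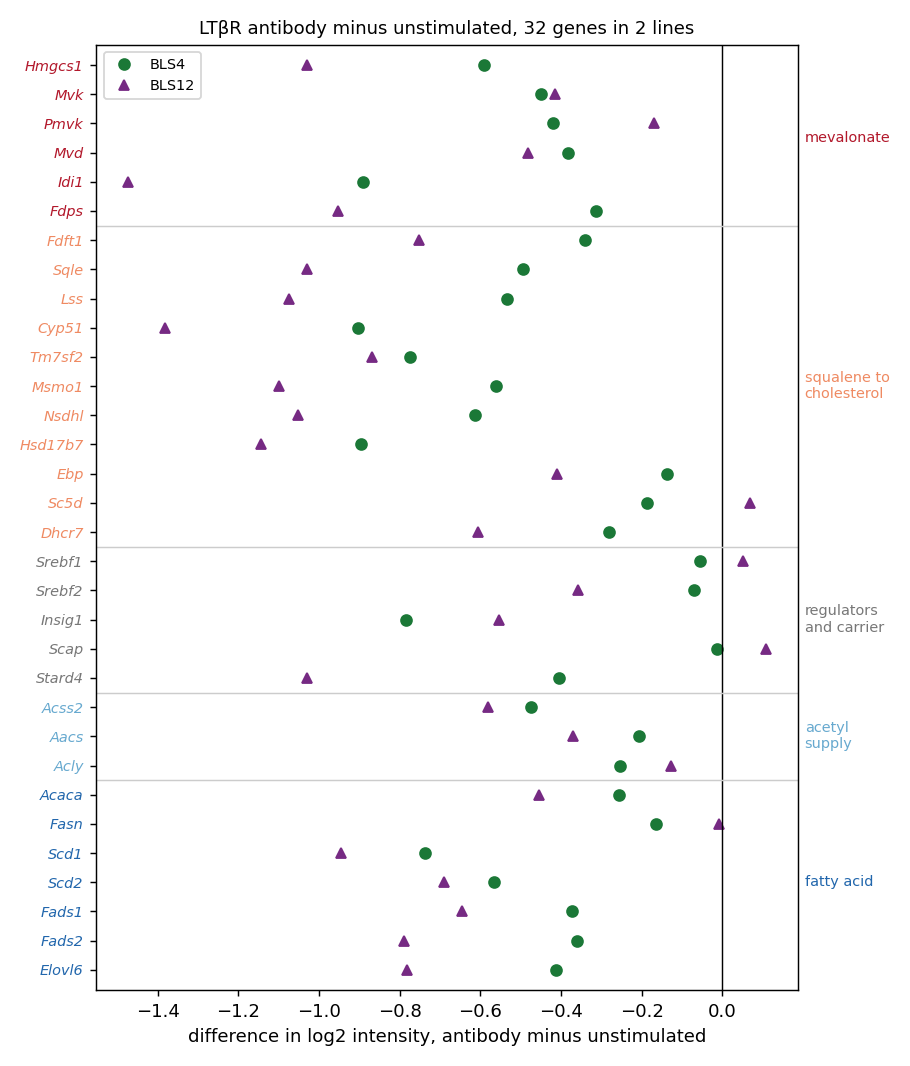
Difference in log2 intensity, antibody minus unstimulated (x axis), for each of 32 genes (y axis, grouped and coloured by role) in BLS4 (circles) and BLS12 (triangles), 1 pair of arrays each. All 32 circles and 29 of 32 triangles lie left of 0; Cyp51 (-0.90), Hsd17b7 (-0.90) and Idi1 (-0.89) are the 3 leftmost circles, and Idi1 (-1.47) and Cyp51 (-1.38) the leftmost triangles.

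Transcripts of the SREBP genes and Scap had small differences with antibody. Srebf1 read 8.52 in MEF, 8.46 in LN stroma, 8.36 and 8.30 in BLS4 and 8.50 and 8.55 in BLS12, a range of 0.25 log2 units, the narrowest of the 32 genes. Its fitted antibody difference was -0.0029, and 0.0385 after quantile normalization. Srebf2 read 9.62 in MEF, 9.18 in LN stroma, 9.64 and 9.57 in BLS4 and 9.94 and 9.58 in BLS12, with a fitted difference of -0.21 (SE 0.150, adjusted p = 0.644). Scap read 8.91 in MEF, 8.51 in LN stroma, 9.67 and 9.65 in BLS4 and 9.92 and 10.03 in BLS12; its difference was 0.05 as deposited and -0.0279 with arrays centred on their medians. These are transcript levels, and processing of the SREBP proteins was not measured.

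Insig1 and Stard4, which are SREBP targets themselves, were lower with antibody in each line. Insig1 read 10.01 in MEF, 9.58 in LN stroma, 11.16 and 10.38 in BLS4 and 9.80 and 9.24 in BLS12, a difference of -0.67 (SE 0.145, adjusted p = 0.174). Its BLS4 arrays were both above its BLS12 arrays. Stard4, which carries cholesterol between membranes, read 7.81 in MEF, 6.68 in LN stroma, 7.96 and 7.56 in BLS4 and 8.51 and 7.48 in BLS12, with both antibody arrays below both unstimulated ones.

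Of the acetyl supply enzymes Acss2 differed most with antibody, by -0.48 in BLS4 and -0.58 in BLS12 (fitted -0.53, SE 0.139, adjusted p = 0.244), and its arrays separated by treatment. It makes acetyl-CoA from acetate and read 6.81 in MEF, 7.54 in LN stroma, 7.003 and 6.53 in BLS4 and 6.57 and 5.99 in BLS12, which made it the only member with its highest value in LN stroma. Acly, which makes acetyl-CoA from citrate, differed by -0.25 and -0.13 in BLS4 and BLS12. Aacs, which activates acetoacetate, read 9.05 in MEF, 7.44 in LN stroma, 8.90 and 8.69 in BLS4 and 8.60 and 8.23 in BLS12. Its spread between treatments was small beside the gap between LN stroma and every cultured array.

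In the fatty acid branch all 7 enzymes were lower with antibody in each line, with medians of -0.37 in BLS4 and -0.69 in BLS12 beside -0.49 and -0.95 in the sterol branch. The desaturases and the elongase carried most of this. Scd1, a stearoyl-CoA desaturase, read 9.75 in MEF, 9.04 in LN stroma, 10.82 and 10.08 in BLS4 and 10.94 and 10.00 in BLS12, and the fitted difference was -0.84 (SE 0.144, adjusted p = 0.109). Scd2, its paralogue, read 11.46 in MEF, 9.70 in LN stroma, 11.88 and 11.31 in BLS4 and 12.16 and 11.47 in BLS12 (adjusted p = 0.181). In each desaturase both antibody arrays lay below both unstimulated arrays; Scd1 and Scd2 are similar in sequence, and shared hybridization was not tested. Elovl6, the elongase of saturated chains, read 9.06 in MEF, 8.22 in LN stroma, 8.69 and 8.28 in BLS4 and 9.58 and 8.80 in BLS12, with a difference of -0.60 (SE 0.158, adjusted p = 0.245).

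Fads1 and Fads2, which desaturate polyunsaturated chains, had fitted differences of -0.51 and -0.57, and their arrays separated by treatment. The enzymes that build the chain differed less. Fasn, the fatty acid synthase, read 9.87 in MEF, 8.61 in LN stroma, 9.62 and 9.46 in BLS4 and 9.58 and 9.58 in BLS12, a difference of -0.09 (SE 0.141, adjusted p = 0.859). Acaca, which makes malonyl-CoA, read 8.87 in MEF, 7.84 in LN stroma, 8.59 and 8.33 in BLS4 and 9.20 and 8.74 in BLS12. Its other, dimmer row differed by 0.12 in BLS4 and -0.79 in BLS12, so the sign in BLS4 depended on the row.

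The difference was larger in BLS12 than in BLS4 for 24 of the 32 genes, 14 of them in the sterol branch and 6 in the fatty acid branch. How many of all genes were lower further in BLS12 was not counted, so these counts have no share beside them. All genes leaned the same way, with 6767 of 11988 lower with antibody in BLS12 and 5598 in BLS4. With 1 array per line and condition this contrast between lines had no test. Cell cycle genes differed with the antibody as well, but in opposite directions: all 11 with a row, of 12 listed, were higher in BLS4 (median 0.52, range 0.18 to 0.71) and lower in BLS12 (median -0.96, range -1.38 to -0.60). Their summed intensity was 1546 without and 2101 with antibody in BLS4, and 7001 and 3539 in BLS12. The part of the cell cycle in the antibody differences of the sterol and fatty acid genes was not tested in either line, nor was its part in the larger BLS12 difference. The myeloid markers Lyz2 and Cd14 were higher with antibody in BLS12 as well, from 7.82 to 9.63 and from 8.0 to 9.73, while Itgam, Adgre1 and Csf1r stayed below the array median there. The summed intensity of the 8 myeloid markers was 727 and 737 in BLS4 and 683 and 1882 in BLS12, and its part was not tested. Array medians also differed, the antibody array of BLS12 being higher by 0.13 log2 units and that of BLS4 by 0.02. With arrays centred on their medians Idi1 (-1.26, adjusted p = 0.0432), Cyp51 (-1.22, adjusted p = 0.0401) and Hsd17b7 (-1.10, adjusted p = 0.0425) passed, and over the other alternatives the lowest adjusted p of any member was 0.0678 to 1.00.

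**Figure D3:**
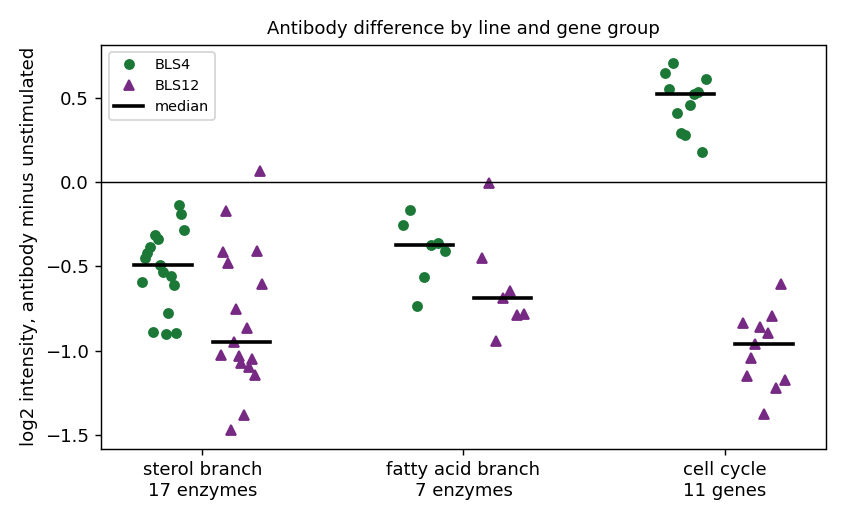
Antibody minus unstimulated difference in log2 intensity (y axis) for sterol enzymes, fatty acid enzymes and cell cycle genes (x axis) in BLS4 (circles) and BLS12 (triangles); each point is a gene and bars are medians. Sterol and fatty acid enzymes lie below 0 in each line apart from Sc5d in BLS12 (0.07), while cell cycle genes have medians of 0.52 in BLS4 and -0.96 in BLS12.

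Genes around these pathways that are no members were counted from a list of 39, of which 30 had a row and were tested. None passed in limma, and 3 were higher and 1 lower at an unadjusted p of 0.05, beside 5.73% and 5.91% of all genes. Their median differences of 0.01 in BLS4 and 0.06 in BLS12 were close to those of all genes. By size, 0 were at least 1.5-fold lower in both lines and 1 was higher, beside 1.1% and 1.43% of all genes. The higher gene was Ch25h, which makes 25-hydroxycholesterol, an oxysterol that retains SREBP through Insig proteins. Its log2 intensity was 6.56 without and 9.22 with antibody in BLS4 and 5.08 and 5.87 in BLS12, against 7.22 in MEF and 7.95 in LN stroma, where the BLS12 array medians were 5.69 and 5.82. Abca1, the sterol efflux pump, read 8.83 and 9.38 in BLS4 and 7.93 and 9.70 in BLS12 (adjusted p = 0.23), with 8.50 in MEF and 10.48 in LN stroma. All other listed genes differed by less than 1.5-fold in at least 1 line, and the relation of Ch25h or Abca1 to the members was not tested.

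The comparison of LN stroma with MEF set uncultured adult stroma against cultured embryonic fibroblasts of the same strain, with 1 array each and no test. In LN stroma 30 of the 32 genes were lower, with a median of -0.96 where all 12613 genes compared had -0.11. At least 2-fold lower were 16 members, and 0 were higher by that size, beside 12.1% of all genes lower and 10.2% higher. The sterol branch had a median of -1.19, with 11 of 17 enzymes 2-fold lower, and the fatty acid branch had -0.84, with 3 of 7. The largest differences were in Sc5d (-2.06), Msmo1 (-1.97), Hsd17b7 (-1.86), Sqle (-1.80) and Fdps (-1.79) among sterol enzymes and Scd2 (-1.76) and Fasn (-1.26) among fatty acid enzymes. Aacs (-1.61), Stard4 (-1.13), Acaca (-1.03) and Mvd (-1.04) were also past 2-fold. Ebp (0.67) and Acss2 (0.73) were the 2 genes above MEF. The polyunsaturated desaturases Fads1 (-0.37) and Fads2 (-0.17) were less than 1.5-fold below MEF. So were the regulators Srebf1 (-0.06), Srebf2 (-0.44), Insig1 (-0.43) and Scap (-0.41).

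Against the unstimulated lines the same LN array was lower than each line in 30 genes, with medians of -1.27 against BLS4 and -1.23 against BLS12 (all 12827 genes -0.08 and -0.10). Here 17 members were at least 2-fold lower against each line and 0 higher, beside 4.25% and 7.03% of all genes. Of the sterol branch 12 of 17 passed this size and of the fatty acid branch 2 of 7, the desaturases Scd1 (-1.78 and -1.90) and Scd2 (-2.18 and -2.45). Elovl6 was -0.47 against BLS4 and -1.36 against BLS12, and Fads2 was -0.53 and -1.21, so the fatty acid difference was smaller against BLS4 (median -0.77) than against BLS12 (-1.36). In the sterol branch it was the reverse, -1.65 and -1.26, with Nsdhl at -2.55 and -1.26. Scap, -1.16 and -1.41, was also past 2-fold.

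Against the antibody-treated lines fewer members were past 2-fold. LN stroma was at least 2-fold lower than each treated line in 4 members, Lss, Sc5d, Scap and Scd2, and higher in Acss2, where 4.36% of all genes were lower and 7.25% higher. The sterol branch median was -0.95 against treated BLS4 and -0.15 against treated BLS12, and the fatty acid median was -0.49 and -0.90. The comparisons of LN stroma share the LN array, and those with and without antibody share no line array.

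Transcripts of cell type markers and cell cycle genes also differed in these comparisons, and their part in them was not tested. Cell cycle genes were lowest in LN stroma, with a summed intensity of 711 against 4990 in MEF and 1546 to 7001 in the lines. All 11 were at least 2-fold below MEF, with a median of -2.81. Myeloid markers were above the array median in 8 of 8 genes in MEF and in 3 of 8 in each other array, summing to 2286 in MEF, 606 in LN stroma and 683 to 1882 in the lines. Endothelial markers were above it in 6 of 8 genes in LN stroma and in 1 to 3 elsewhere, summing to 734 and 329 to 498, although the sort had removed CD31+ cells. Among them Pecam1 read 6.4 and Tek 8.2 in LN stroma. Of the 8 endothelial markers 7 were higher in LN stroma than in MEF. The other 1, Kdr, was lower, at 5.96 in LN stroma and 7.93 in MEF. Adipocyte markers summed to 625 in LN stroma and 308 to 406 elsewhere, with Plin1 at 7.8 and Lipe at 7.5, while Adipoq was at 4.2 in LN stroma and in MEF, below the array medians. Lymphocyte markers summed to 166 to 290 in all arrays and epithelial markers to 241 to 378.

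**Figure D4:**
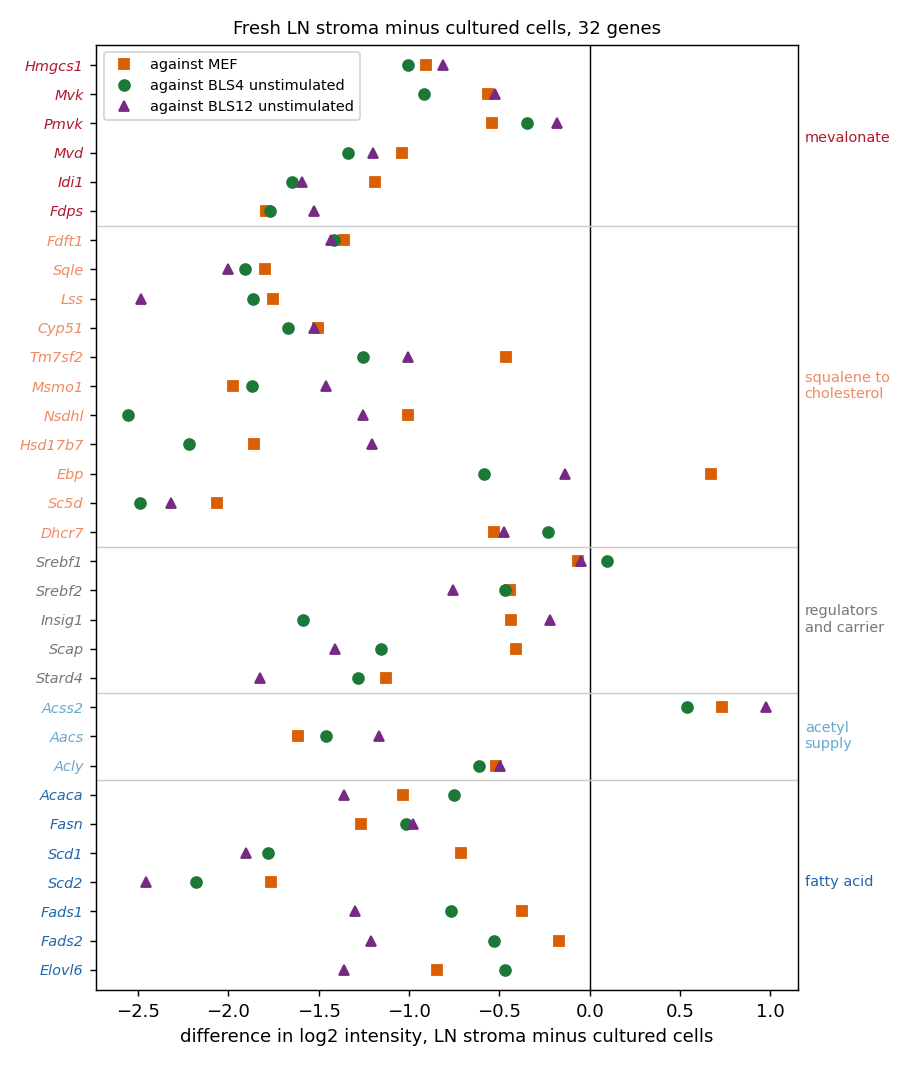
Difference in log2 intensity of LN stroma from MEF (squares), unstimulated BLS4 (circles) and unstimulated BLS12 (triangles) on the x axis, for each of 32 genes on the y axis, from 1 LN array. Nearly all points lie left of 0; Acss2 lies right of 0 in all 3 comparisons (0.73, 0.54 and 0.97) Ebp in that with MEF (0.67) and Srebf1 in that with BLS4 (0.10).

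Of the surrounding genes, 4 were at least 2-fold lower in LN stroma than in MEF and 6 higher, of 30. Over all genes compared 12.1% were lower and 10.2% higher, so the count of lower genes does not set this list apart. The lower genes included Me1, the malic enzyme that supplies reducing power for fatty acid synthesis, at 10.77 in MEF and 7.43 in LN stroma, and Slc25a1, the citrate carrier, at 9.55 and 8.55. Higher were the efflux pump Abca1, the sterol hydroxylases Cyp27a1 and Cyp7b1, Nr1h3, a sterol-sensing nuclear receptor, Acacb and Gpam. All 7 tested genes of sterol efflux and oxysterol synthesis were above MEF, with a median of 1.56. Of all 12613 genes compared 5444 were above MEF, with a median of -0.11. Cyp7b1 read 5.58 in MEF and 8.87 in LN stroma, and Cyp27a1 5.78 and 8.66. These MEF values lay close to the MEF array median of 5.74.

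In the unstimulated lines the sterol branch had medians near the MEF level, and the fatty acid branch had medians above it. The sterol branch had medians of 0.17 in BLS4 and 0.07 in BLS12 relative to MEF, and all 12676 genes had -0.01 and 0.02. In both lines 0 members were at least 2-fold lower and 1 was higher, Scd1 (1.07 and 1.19), beside 3.85% and 1.97% of all genes. Taken by itself BLS4 had 4 members at least 2-fold higher, beside 4.8% of all genes, which were Nsdhl (1.55), Ebp (1.25), Insig1 (1.15) and Scd1. BLS12 had 3, beside 6.21%, which were Scd1, Fads2 (1.04) and Scap (1.00). The fatty acid branch had medians of 0.36 in BLS4 and 0.69 in BLS12, with 3 of 7 enzymes below MEF in BLS4 and 1 in BLS12.

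BLS12 was compared with BLS4 by the average over both conditions. In limma 5 members were lower in BLS12 and 1 was higher, out of 32, where 11.4% of all tested genes were lower and 12.2% higher, so the calls alone do not set the members apart from all genes. The lower genes were Nsdhl (-1.51, SE 0.165, adjusted p = 0.00413), Insig1 (-1.25, SE 0.145, adjusted p = 0.00496), Hsd17b7 (-1.14, SE 0.147, adjusted p = 0.00674), Ebp (-0.59, SE 0.149, adjusted p = 0.0412) and Msmo1 (-0.68, SE 0.178, adjusted p = 0.0448). The higher gene was Elovl6 (0.71, SE 0.158, adjusted p = 0.0289). Of the 5 lower genes 4 are enzymes of the squalene to cholesterol part. Ebp had an adjusted p of 0.0551 with arrays centred on their medians, and without antibody in the fit none of these 6 passed. With 1 residual degree of freedom adjusted p-values can be too small.

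Beyond the calls, the sterol branch had a median of -0.17 in unstimulated and -0.45 in treated cells. Of its 17 enzymes 11 were lower in BLS12 in both conditions and 1, Lss, was higher in both. Of all 11988 tested genes 4538 were lower in both conditions and 4699 higher, with medians of 0.02 unstimulated and -0.01 treated. The fatty acid branch had medians of 0.53 and 0.25, with 5 of 7 enzymes higher in both conditions. Acaca is among the 5 by its brighter row only. Its dimmer row read 7.47 and 7.60 in BLS4 and 8.07 and 7.27 in BLS12, unstimulated first. The sign of its line difference with antibody thus depended on the row. The fitted median of the fatty acid branch, 0.39, was 0.125 with the acetyl supply genes counted in it, and the difference between the branches was not tested. Acaca (0.51, adjusted p = 0.0545), Fads2 (0.47, adjusted p = 0.0949) and Fads1 (0.39, adjusted p = 0.112) were next to Elovl6 in size, and Fasn (0.04) and Scd1 (0.02, and -0.0107 after quantile normalization) lay near 0. Acss2, of the acetyl supply, differed by -0.49 (adjusted p = 0.0563). Of the 30 surrounding genes 11 were lower in BLS12 and 2 higher in limma, beside 11.4% and 12.2% of all genes. The higher genes were Gpam (2.59), which starts glycerolipid assembly, and Elovl5 (0.76), another elongase. The lower genes were Insig2, Npc2, Nr1h3, Ch25h, Cyp7b1, Elovl1, Fads3, Me1, Acsl4, Lpin1 and Dgat2, from -0.54 for Insig2 to -2.42 for Ch25h. Cell cycle genes were higher in BLS12 in both conditions, with medians of 2.10 unstimulated and 0.61 with antibody, and their part in these line differences was not tested.

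**Figure D5:**
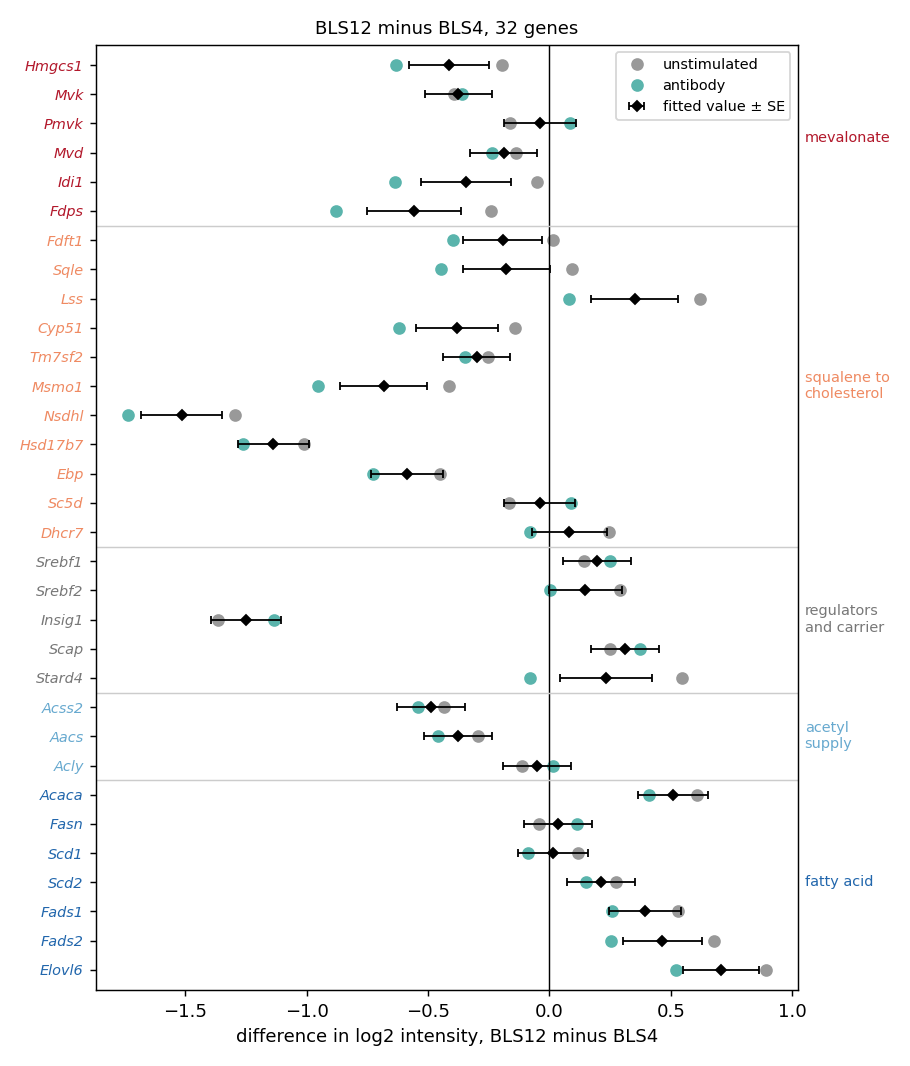
Difference in log2 intensity, BLS12 minus BLS4 (x axis), for each of 32 genes (y axis) in unstimulated cells (grey) and with antibody (teal), 1 pair of arrays each; black diamonds with bars are the limma estimate ± SE. Nsdhl, Hsd17b7 and Insig1 lie farthest left (-1.51, -1.14 and -1.25) and Elovl6 farthest right (0.71).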

How the data were processed

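Whole-transcript arrays of 6 RNA samples were analysed. Per the submitters' processing notes, Affymetrix Expression Console 1.1 was used. The deposited values are linear intensities, 1 column per array. Summary method, normalization and build: not given in the sources used here. As log2 values had been assumed in the design, log2 was taken, with no pseudocount. Of 35557 rows 21789 named 1 gene, 1621 several and 12147 none, and 21698 matched an Entrez ID. The brightest row was used for the 3 members with several.

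Lines were compared with limma 3.58.1 (R 4.3.3): lmFit on cell line and antibody, eBayes, two-sided, with Benjamini-Hochberg adjustment over 11988 genes at 0.05. Genes were kept where at least 2 of 4 arrays reached the array median. The lines pair the arrays, as each is 1 cell line under both conditions. With 1 residual degree of freedom, the spread is the disagreement between the lines. Tested on simulated data, also with 1 residual degree of freedom, this fit made more false calls than the threshold allows. Adjusted p-values can therefore be too small, and the reason was not tested. MEF and LN stroma, with 1 array each, were compared by size, at 2-fold. Precision is limited by the number of arrays.

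Members, lists, thresholds and motifs were chosen with earlier results of these data known. Values in all arrays were printed for 10 fixed genes and for members called or past a size threshold. Scaling, row choice, filter, blocks and thresholds were varied.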

Additional observations from a re-analysis of the deposited data

How the results depend on the processing

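Every comparison with MEF or LN stroma rests on 1 array of that group, and fits without a line left no residual, so they gave values and no test. For the antibody, 0 members were lower in limma as deposited and 3 with median centring. Genes called lower numbered 9 as deposited, 44 with median centring, 1 after quantile normalization, 16 without the filter, 15 with a trend and 0 without the cell line as a replicate block. Genes called higher numbered 24, 54, 5, 38 and 0 (the trend moved this count by less than 1.5 times). Members at least 1.5-fold lower in both lines numbered 7, and 0 at 2-fold; single lines gave 8 to 18. Signs near 0 reversed for Sc5d (0.0128) and Srebf1 (0.0385) after quantile normalization and Scap (-0.0279) with median centring.

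Without antibody in the fit, BLS12 against BLS4 gave 0 members lower and 0 higher, 758 genes lower and 670 higher, against 1368 and 1467; Scd1 reversed to -0.0107 after quantile normalization. With the acetyl supply genes counted in it, the fatty acid median went from 0.39 to 0.125 between the lines and from 0.55 to 0.0546 for the lines against MEF. At 4-fold, 1 member was lower in LN stroma than in MEF, 2 lower than in both lines, and 0 higher in the lines than in MEF. Single lines had 3 to 4 members higher than MEF, a sterol median of 0.0732 to 0.17 against MEF, and one of -1.65 to -1.26 for LN stroma against them. Against antibody-treated lines LN stroma had 4 members lower and 1 higher, and a sterol median of -0.69 in place of -1.60. The causes of these changes were not tested. Among values of single genes 593 kept their direction and call or lay within the spread, 7 lost a call, 4 gained one, 6 moved and 4 changed sign.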
